A study of Drosophila virilis and Drosophila yakuba with 2 samples.

Results

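Transcript levels of 5 Drosophila muscle genes, Mhc, Mlc1, Mlc2, wupA and up, were measured in the heads of D. virilis and D. yakuba. D. yakuba is a close relative of the model species D. melanogaster, while D. virilis falls in a separate subgenus. Both groups were wild-type females, mated and 2 to 5 days old, and each species gave a single library, made from 1 µg of total RNA. The number of heads per library is not stated in the labels. The genes were found by the symbol in each table of gene models after the species prefix and transcript suffix were removed, which gave 8 of 30568 models. The virilis table (14491 models) held Mhc, Mlc1, wupA and up, and the yakuba table (16077 models) held Mhc, Mlc1, Mlc2 and wupA. Mlc2 of virilis and up of yakuba had no row under those symbols and were not analysed here, so 3 genes could be compared between the species.

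Muscle shortens when thick filaments of myosin pull on thin filaments of actin within a repeating unit, the sarcomere. Each myosin heavy chain carries an essential and a regulatory light chain, and in D. melanogaster the muscle forms of these are encoded by Mhc, Mlc1 and Mlc2. On the thin filament, the troponin complex lets calcium start contraction: troponin C binds calcium, troponin I, encoded by wupA (wings up A), holds the thin filament inactive, and troponin T, encoded by up (upheld), ties the complex to tropomyosin. The heads of adult flies hold the muscles that move the mouthparts, the antennae and the pharynx beside brain and eye tissue.

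Levels were deposited as FPKM, fragments per kilobase of gene model scaled to the library total, which is corrected for length and allows genes of a library to be set side by side. The median level among all models was 6.26 FPKM in the virilis table and 4.20 FPKM in the yakuba table. The steps between low FPKM values put the total behind each library at about 70750000 fragments in virilis and 63250000 fragments in yakuba. For a gene with 1 kb of effective length, the lowest level here, wupA of yakuba, would then rest on 8575 fragments with a 95% exact Poisson interval of 133 to 138 FPKM. The highest level, Mlc1 of virilis, would have an interval of 1675 to 1694 FPKM. These intervals cover counting error only, and with 1 library per species there was no replicate error and no test. Head identity was checked by photoreceptor genes, of which ninaE, the main rhodopsin, had 8636 FPKM in virilis and the arrestin gene Arr1 had 2177 FPKM in yakuba.

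All 4 genes found in each library were among its most abundant transcripts. Their median was 822 FPKM for virilis and 547 FPKM for yakuba. Together they made up 0.768% of the summed FPKM in virilis and 0.543% in yakuba. For the 3 genes found in both, the shares were 0.689% and 0.292%. The highest gene was 4.40 times as high as the lowest in virilis (Mlc1 over up) and 7.77 times in yakuba (Mlc2 over wupA). The 4 genes were not the same in each library, so the medians, 4-gene shares and these spreads do not compare the species. Mlc1 over wupA, both found in each library, was 3.63 in virilis and 4.46 in yakuba. No other model overlapped any of the 8 rows in the tables' coordinates, whose genome builds the sources used here do not name.

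Mhc, the muscle myosin heavy chain gene, reached 1181 FPKM in the virilis library (FBgn0022428, scaffold_12963, 10115477 to 10136340) and 490 FPKM in the yakuba library (FBgn0068126, 2R, 4314006 to 4333376). It ranked 36 among the virilis models and 161 among the yakuba models, with 99.8% and 99.0% of models below it. Its gene models spanned 20864 bp in virilis and 19371 bp in yakuba, introns included. The nearest model on one side lay 2590 bp away in virilis, Cyt-b5-r at 216 FPKM, and 869 bp away in yakuba, GE13163 at 178 FPKM. On the other side the nearest models had 0.235 FPKM in virilis against 0.240 FPKM in yakuba.

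Mlc1, the essential light chain gene, was the highest of the 4 genes in virilis at 1685 FPKM (FBgn0013088, scaffold_12855, 2130136 to 2132237) and had 605 FPKM in yakuba (FBgn0015215, 3R, 23001449 to 23003539). Its rank was 22 in virilis and 132 in yakuba. The models were nearly equal in span, 2102 bp and 2091 bp. Mlc2, the regulatory light chain gene, was the highest of the 4 in yakuba at 1053 FPKM (FBgn0068125, 3R, 26932258 to 26933799), where it ranked 48. The models on either side of Mlc2, 2081 and 2068 bp away, had 1.98 and 14.5 FPKM.

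wupA, the troponin I gene, had 464 FPKM in virilis (FBgn0068554, scaffold_12928, 1282382 to 1293784), where it ranked 194. In yakuba it had 136 FPKM (FBgn0067918, X, 16624321 to 16632898) and ranked 462, the lowest position of the 8 rows, with 97.1% of yakuba models below it. Its span was 11403 bp in virilis and 8578 bp in yakuba, a ratio of 1.33. The troponin T gene up had 383 FPKM in virilis (FBgn0022424, scaffold_12970, 10956056 to 10962397) and ranked 224, with flanking models at 12.7 and 8.69 FPKM. The troponin genes found, wupA and up in virilis and only wupA in yakuba, thus lay below the myosin genes found in each library.

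**Figure D1:**
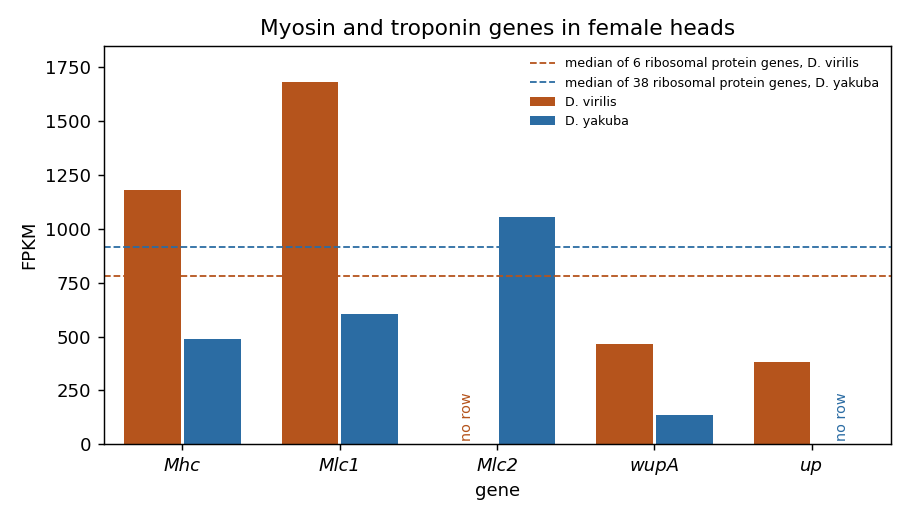
FPKM of the 5 genes in the heads of D. virilis and D. yakuba, 1 bar per library, with dashed lines at the median FPKM of the ribosomal protein genes with a symbol in each library (6 in virilis, 38 in yakuba). Mhc and Mlc1 of virilis and Mlc2 of yakuba stand above the line of their own library, and all other bars stand below it.

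Within each library, the essential light chain gene was slightly above the heavy chain gene. Mlc1 had 1.43 times the FPKM of Mhc in virilis and 1.24 times in yakuba, a difference of 0.21 between the species on the log2 scale. In yakuba, Mlc2 had 2.15 times the FPKM of Mhc and 1.74 times that of Mlc1, so the 2 light chain genes differed more from each other than Mlc1 did from Mhc.

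The troponin I gene had 0.393 times the FPKM of Mhc in virilis and 0.277 times in yakuba. On the log2 scale this ratio was higher in virilis by 0.50, and the ratio of wupA to Mlc1 was higher by 0.29. Within virilis, troponin I and troponin T were close in level, with wupA at 1.21 times up. The up gene had 0.324 times the FPKM of Mhc. Among the 3 genes measured in both species, the order Mlc1, Mhc, wupA was the same. These ratios compare gene models whose exon lengths are not in the tables, so part of a difference may come from the models, which was not tested.

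**Figure D2:**
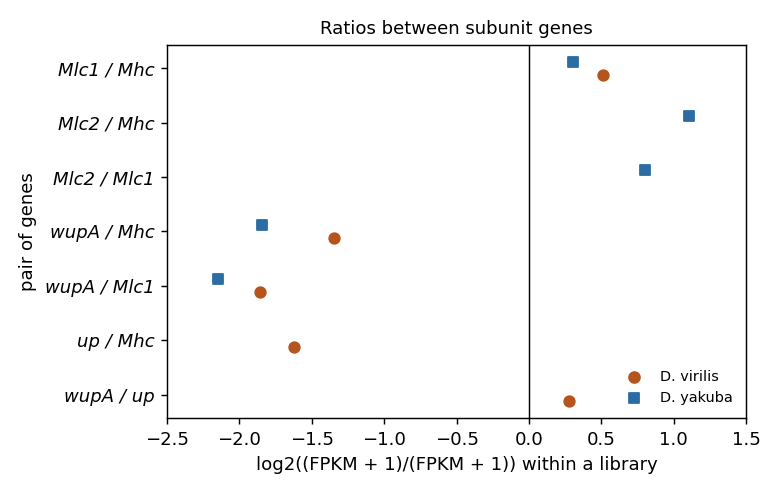
Ratios between pairs of the genes within a library, as log2((FPKM + 1)/(FPKM + 1)), with circles for D. virilis and squares for D. yakuba. The ratio of Mlc1 to Mhc is above 0 in both libraries (0.51 and 0.30), and the ratio of wupA to Mhc is below 0 in both (-1.35 and -1.85).

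Other sarcomere genes with a symbol ranged more widely than the myosin and troponin T and I genes. With those added below, they numbered 10 in virilis and 8 in yakuba against 4 in each library, and a larger set tends to range more widely. Of 34 symbols in the lists of other thick filament, actin and tropomyosin, troponin C and Z disc genes, 1 was found in virilis and 7 in yakuba. The virilis gene was Prm, which encodes paramyosin of the thick filament core, at 217 FPKM, or 0.184 times Mhc. In yakuba, the actin gene Act57B had 406 FPKM, the muscle LIM protein gene Mlp60A 367 FPKM and the tropomyosin gene Tm2 244 FPKM, or 0.829, 0.750 and 0.499 times Mhc. The thick filament gene fln, which encodes flightin, had 68.8 FPKM and the tropomyosin gene Tm1 had 54.3 FPKM. The troponin C genes TpnC4 and TpnC47D had 51.1 and 3.62 FPKM. Which muscles the transcripts of any of these genes, or of the myosin and troponin T and I genes, came from was not tested. No gene of the Z disc list was found in either library.

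Further actin, troponin C and muscle protein genes carried symbols outside those lists and were added after their values were seen. In virilis, the 4 actin genes ranged from 121 FPKM (ActE2) to 2199 FPKM (ActC2), which was above Mlc1, with ActD1 at 190 FPKM and ActE1 at 1159 FPKM. Actin genes are near-identical copies whose values are uncertain. Whether each of the 4 is a muscle or a non-muscle form is not given by its symbol. The 5 virilis troponin C genes ranged from 2.83 FPKM (TpnCIb) to 421 FPKM (TpnCII), so the highest of them lay between wupA and up. The others were TpnCIIIa at 333 FPKM, TpnCIa at 91.9 FPKM and TpnCIIIb at 12.1 FPKM. In yakuba, Mp20 (muscle protein 20) had 163 FPKM. With these, and with the 4 actin genes counted, 7 of 10 other sarcomere genes in virilis had 100 FPKM or more. Their median was 204 FPKM. In yakuba, 4 of 8 had 100 FPKM or more, with a median of 116 FPKM. The genes counted in virilis and in yakuba share no symbol, so these values do not compare the species. For scale, 94.6% of virilis models lay below TpnCIa and 94.5% of yakuba models below fln, the highest of these genes under 100 FPKM. The only non-muscle myosin gene found was sqh, which encodes the non-muscle regulatory light chain, at 62.8 FPKM in yakuba against 1053 FPKM for Mlc2. Of transcription factor genes known from muscle development, salm had 3.13 FPKM in virilis, and twi had 0.130 FPKM there against 0.280 FPKM in yakuba.

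Between the species, Mhc, Mlc1 and wupA were all higher in the virilis library, by 2.41, 2.78 and 3.42 times as deposited. In whole heads, a larger share of muscle cells and more of these transcripts per muscle cell cannot be told apart, nor can species, gene models, read mapping and library preparation with 1 library each. The ribosomal protein genes, which every cell uses, served as the yardstick, and the 6 with a symbol in both tables were all lower in virilis. RpL32 had 664 FPKM in virilis against 1316 FPKM in yakuba, the widest gap, and RpS3 had 552 and 625 FPKM, the narrowest. RpL15 had 754 and 1250 FPKM, RpL14 808 and 1155 FPKM, RpL31 977 and 1133 FPKM, and RpS18 845 and 968 FPKM. Their median log2 ratio of virilis over yakuba, with 1 FPKM added to each value, was -0.36.

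Relative to that median, the log2 ratio was 1.63 for Mhc, 1.84 for Mlc1 and 2.13 for wupA, which correspond to 3.10, 3.58 and 4.38 times. Against the single ribosomal protein genes, Mhc of virilis was 1.21 to 2.14 times as high as they were, while Mhc of yakuba was 0.372 to 0.784 times as high. Mlc1 was 1.72 to 3.05 times as high as those genes in virilis and 0.460 to 0.968 times in yakuba. wupA was below every one of the 6 in both libraries, at 0.475 to 0.841 times in virilis and 0.103 to 0.217 times in yakuba. Mhc and Mlc1 were thus above all 6 ribosomal protein genes in virilis and below all 6 in yakuba. The yakuba table held 38 ribosomal protein genes with a symbol, from 452 to 1681 FPKM, so neither gene was below all of those. In yakuba the 6 paired ones had a median of 1144 FPKM, against 918 FPKM for all 38.

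**Figure D3:**
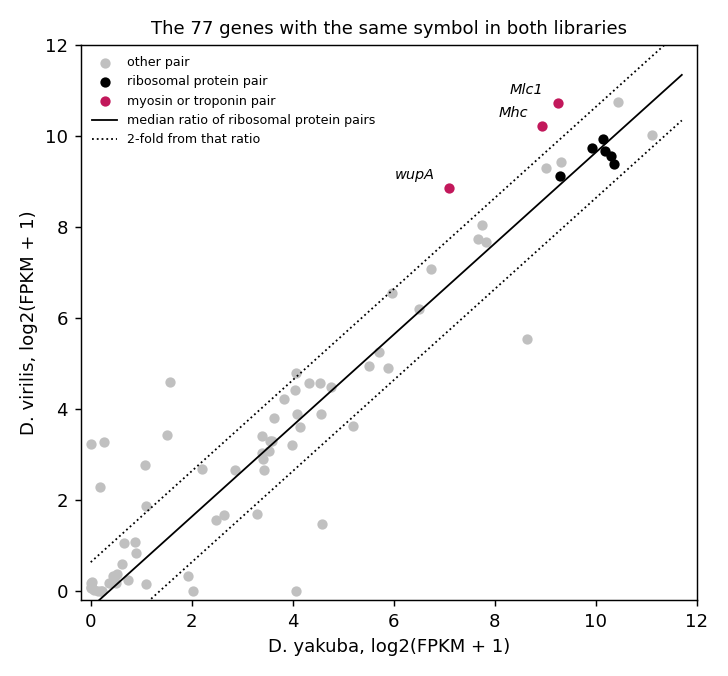
Levels of the 77 genes with the same symbol in both libraries as log2(FPKM + 1), D. yakuba on the horizontal and D. virilis on the vertical axis, with 1 point per gene. The solid line is the median ratio of the ribosomal protein pairs and the dotted lines are 2-fold from it, and Mhc, Mlc1 and wupA lie above the upper dotted line while the 6 ribosomal protein pairs lie between the lines.

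The 6 ribosomal protein pairs themselves ran from -0.62 for RpL32 to 0.19 for RpS3 relative to their median. Pairs come only from models with a symbol, 1.93% of the virilis and 3.09% of the yakuba models. The shares and places among pairs are therefore not those among all genes. Of the 41 pairs that reached 10 FPKM in either library, 5 (12.2%) were at least 2-fold above the ribosomal median towards virilis, and Mhc, Mlc1 and wupA were 3 of these 5. The others were the maltase gene Mal-A5 and the metallothionein gene MtnB. Without the 3 muscle genes, 2 of 38 pairs (5.26%) were that far towards virilis. Towards yakuba, 4 pairs (9.76%) were at least 2-fold away, Mal-B2, Obp99a, dhd and MtnC. At 4-fold, 3 pairs (7.32%) were higher in yakuba and 2 pairs (4.88%) in virilis, the latter wupA and Mal-A5. The metallothionein genes MtnB and MtnC had the same yakuba value, 15.7 FPKM, and the same span, 193 bp, so both of their calls are uncertain. Without these genes the counts were 4 towards virilis and 3 towards yakuba at 2-fold, and 2 and 2 at 4-fold. The ratio of wupA was below 4-fold when the ratios were centred on all pairs (1.97) or not centred (1.77).

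Among pairs at 100 FPKM or more, the 9 that were neither muscle nor ribosomal protein genes ran from -2.73 for Obp99a, an odorant-binding protein gene, to 0.69 for Obp49a, so none reached the 1.63 of Mhc. In the same scale, the glycerol-3-phosphate dehydrogenase gene Gpdh, an enzyme gene used by flight muscle and fat body, had 0.22, with 203 FPKM in virilis against 225 FPKM in yakuba. ATPsyn-beta, a mitochondrial ATP synthase gene, had 0.67. Distances between the log2 ratios of the muscle genes over the 2 libraries restate the species differences of the subunit ratios given above. By them, Mhc and Mlc1 were 0.21 apart, Mlc1 and wupA 0.29 and Mhc and wupA 0.50. Among the 38 pairs other than these genes, those nearest to Mhc and Mlc1 were MtnB at 1.08, boss at 0.95 and bru-3 at 0.77. Those nearest to wupA were MtnB, boss and Mal-A5 at 3.40. The nearest of the 38, MtnB, whose yakuba value is uncertain, was 0.55 from Mhc, 0.76 from Mlc1 and 1.05 from wupA. The next, boss, was 0.68, 0.89 and 1.18 from them.

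**Figure D4:**
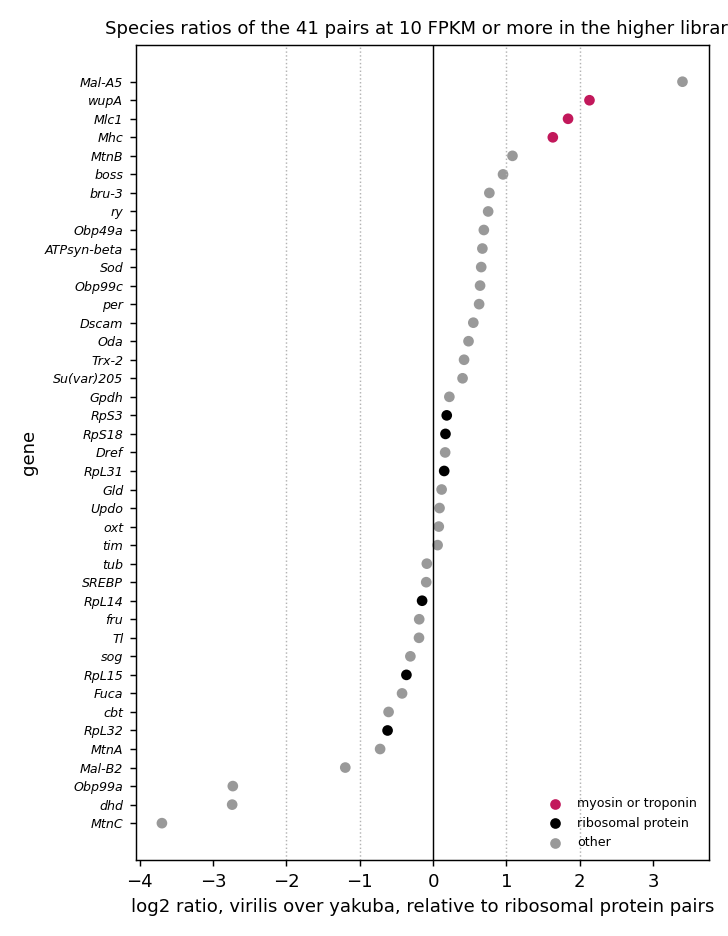
Log2 ratios of virilis over yakuba relative to the median of the ribosomal protein pairs, for the 41 pairs that reached 10 FPKM in either library, in order, with 1 point per gene and dotted lines at 2-fold and 4-fold. wupA, Mlc1 and Mhc take places 2, 3 and 4 towards virilis, behind Mal-A5.

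The other sarcomere lists gave no gene with a symbol in both tables. The calcium and energy list gave Gpdh and the list of muscle transcription factors gave twi, both with the values above. Gpdh was not 2-fold higher in virilis. With under 1 FPKM in both libraries, twi was too low to compare. The photoreceptor, neuron, glia, fat body and hemocyte marker lists gave no pair. Outside those lists, boss, which encodes a ligand of the R8 photoreceptor, was also higher in virilis, at 92.4 FPKM against 61.1 FPKM, or 1.94 times relative to the ribosomal median. It was named because its ratio was near those of the muscle genes, and 1 such gene does not measure the share of eye tissue. The part of eye or other cell types in the ratios of the muscle genes was not tested. In the germline list, 1 of 9 genes was paired, dhd, with 1.77 FPKM in virilis against 22.8 FPKM in yakuba. The other 6 germline genes found in virilis ran from 0.0864 FPKM (nos) to 4.04 FPKM (Cp15).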

How the data were processed

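Total RNA from heads was made into stranded libraries, per the labels' protocols. The authors deposited 1 FPKM value per gene model, per the file headers. TopHat and Cufflinks are named as tools, per the submitters' processing notes. Tool versions, builds, annotations and strand handling are not given in the sources used.

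Each library was its own group, virilis or yakuba. Of the virilis models 279 (1.93%) had a gene symbol, as had 497 (3.09%) in yakuba, each symbol on 1 row. Ratios used a pseudocount of 1 FPKM, so those of low genes are understated, and species ratios were centred on the 6 ribosomal protein pairs. Starts are counted from 1, taking the deposited starts to count from 0. Totals were estimated from models spanning 900 to 4000 bp, in whole codons, with a non-zero value under 0.12 FPKM. The share of these values that came within 0.04 of whole fragments was 58.9% in virilis and 49.7% in yakuba at the totals taken. A whole fraction of the best total was preferred where it scored nearly as well. Nearby totals that scored nearly as well ran from 70000000 to 72750000 in virilis and from 61250000 to 64750000 in yakuba. Ratio and depth steps were tested on simulated data. The depth simulation used the same length formula as the estimate, so it cannot show how close the real totals are. Python 3.11.15, numpy 2.4.6 and pandas 2.3.3 were used.

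The members and lists were chosen with earlier results of these data known. Named were all members, the other sarcomere genes found, the highest and lowest of each list, the ribosomal protein pairs and the 3 pairs nearest to each member. Of the marker lists, 4 photoreceptor genes were found in virilis (median 173 FPKM), from Rh2 at 62.9 to ninaE at 8636 FPKM. The virilis neuron genes were elav at 12.8 and para at 33.2 FPKM, and the fat body gene was Yp1 at 215 FPKM. In yakuba, the photoreceptor genes were chp at 378 and Arr1 at 2177 FPKM, the neuron gene fne had 24.5 FPKM, the fat body gene to 39.2 FPKM, the hemocyte gene Sr-CI 5.39 FPKM and the germline gene bam 1.17 FPKM. No glial gene was found. The calcium and energy list gave Gpdh in both libraries and the calmodulin gene Cam at 1473 FPKM in yakuba. Alternatives changed the pseudocount, the centring and the minimum level.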

Additional observations from a re-analysis of the deposited data

How the results depend on the processing

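Mhc, Mlc1 and wupA stayed at least 2-fold higher in virilis under all 8 alternatives of pseudocount, centring and scaling. Their log2 ratios were 1.47, 1.67 and 1.97 when centred on all pairs, 1.27, 1.48 and 1.77 when not centred, 2.25, 2.46 and 2.75 when centred on the lowest ribosomal protein pair and 1.45, 1.65 and 1.95 on the highest. They were 1.07, 1.28 and 1.57 after both libraries were rescaled to the same sum, and 1.19, 1.39 and 1.69 when centred on Gpdh and ATPsyn-beta, an alternative chosen after seeing the data. wupA was therefore past 4-fold only with the ribosomal median or its lowest pair as the centre. The cause was not tested.

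Past 2-fold, 5 of 41 pairs were higher in virilis. The count was 11 at a minimum of 1 FPKM or with no filter, which keeps all 77 pairs. It was 3 at 30 FPKM, namely Mhc, Mlc1 and wupA, and 2 without the members. The number of pairs kept differs between the minimums, so the counts at them are not shares. Leaving out the members, or MtnB and MtnC, was also chosen after seeing the data. The 4 pairs higher in yakuba became 7, 7 and 2 at those minimums. Past 4-fold, the 2 pairs higher in virilis became 7 at 1 FPKM or with no filter, and 1 at 30 FPKM, without the members, centred on all pairs or not centred. The 3 higher in yakuba became 1 with a pseudocount of 5 FPKM or a minimum of 30 FPKM. The log2 ratio of wupA to Mlc2 in yakuba was -2.95 and became -2.91 with 5 FPKM. The other subunit ratios stayed within their counting intervals. Symbols had 1 row each, so taking the highest row changed no value. Among models with a symbol, 75.7% to 97.5% lay below the genes. No paired analysis was possible because each species has 1 library.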
